A study of Mus musculus with 30 samples.

Results

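Collagen and extracellular matrix genes were followed through the differentiation of mouse embryonic stem cells into neurons, in parental cells and in 4 edited lines. The set holds 41 genes chosen by symbol, 41 of the 54393 genes in the expression table. Spliced reads were counted for 25626 genes, of which 13938 had enough reads to be tested, and all 41 members were among these. The members were sorted by role into 7 fibrillar collagens, 7 other collagens, 7 basement membrane glycoproteins, 6 adhesive and matricellular glycoproteins, 5 elastic fibre proteins and crosslinkers, 5 proteoglycans, and 4 matrix proteases and inhibitors. The members also carried 3782 annotated splicing events, of which 63 in 21 genes were variable and well enough covered to be fitted.

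The extracellular matrix is the protein scaffold that cells secrete around themselves. Fibrillar collagens are triple helices, some built from 1 kind of chain and others from several, which pack into cables in connective tissue. Basement membranes are thin sheets of collagen IV and laminin networks, linked by nidogens and perlecan, that underlie epithelia and wrap blood vessels, and in the early embryo they are laid down in quantity by the parietal endoderm. Fibronectin, tenascins, thrombospondins and periostin connect these networks to cell-surface receptors, while neurons themselves are surrounded by a matrix richer in chondroitin sulphate proteoglycans than in collagen.

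All cells were CGR8 mouse embryonic stem cells or their derivatives. The parental wild-type line is called WT. Puf60_mEx5_HOM is labelled as a homozygous deletion of exon 5 of Puf60, which encodes a splicing factor that binds polypyrimidine tracts. Puf60_pEx5_HOM and Puf60_pEx5_HET were edited to include that exon constitutively, on both alleles or on 1. Rbm38KO lacks part of Rbm38, which encodes an RNA-binding protein that acts in splicing and RNA stability. Each line was sampled as undifferentiated stem cells on gelatin-coated plates (ESC), as embryoid bodies at day 8 after 2 additions of 6 µM retinoic acid (EB8), and as neurons after 7 days in vitro (DIV7) plated on poly-D-lysine and laminin. The 15 groups had 2 libraries each, lettered A and B. The edited lines are CRISPR-Cas9 clones. Since no label ties a library to a clone, p-values below measure only the spread between these libraries, and that spread may be technical.

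The 30 polyA libraries held 23204150 to 38571969 spliced reads each, and every replicate pair differed by more than sampling noise. Exon 5 of Puf60 was included at 93.15% to 98.97% in the 6 Puf60_pEx5_HOM libraries, at 49.16% to 64.87% in Puf60_pEx5_HET and at 20.71% to 43.95% in WT. It was not at 0 in the line labelled as lacking it, where 7.49% to 13.01% inclusion was recorded. Rbm38 had 0 spliced reads in the 6 libraries labelled Rbm38KO and 8271 in the WT libraries. The 4 Y-linked genes examined had 0 reads in all 6 libraries labelled Puf60_mEx5_HOM and 19748 in the WT libraries. Summed markers of neurons lay between 4238 and 5202 CPM (spliced reads of a gene per library, scaled by median-of-ratios factors) in the 10 DIV7 libraries, against 262 to 393 CPM in the ESC libraries. These are bulk samples, in which fewer cells of a type and less RNA per cell cannot be told apart.

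Levels below are given per library in CPM, first for A and then for B, and levels of different genes are compared only by the authors' deposited RPKM (reads scaled to transcript length and to the size of the library). Changes are log2 fold changes of CPM + 1 with their standard error (SE). A gene was called changed when limma's moderated test gave a Benjamini-Hochberg adjusted p under 0.05 and the change was at least 2-fold. All adjusted p-values for expression come from that 1 fit over the 13938 genes. The comparisons of the 4 lines with WT at a stage share the same 2 WT libraries. Where the libraries of called genes are said not to overlap, this describes their levels only. It is no further evidence, since those genes were chosen for large differences.

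Col4a1, the member with the largest change in neurons of any edited line, lies head to head with its partner Col4a2 in the genome. They encode the alpha 1 and alpha 2 chains that twist together into the main collagen IV of basement membranes. Their RefSeq start sites in GRCm38.p6 are 21 bases apart on opposite strands, so the windows from 250 bases before to 50 bases after each start share 78 bases. The windows are shown because both genes are read from this 1 stretch, and the capitals mark the shared part, which is the same DNA read from opposite strands. The Col4a1 window is chr8:11312777-11313076 on the minus strand and the Col4a2 window is chr8:11312555-11312854 on the plus strand.
Col4a1: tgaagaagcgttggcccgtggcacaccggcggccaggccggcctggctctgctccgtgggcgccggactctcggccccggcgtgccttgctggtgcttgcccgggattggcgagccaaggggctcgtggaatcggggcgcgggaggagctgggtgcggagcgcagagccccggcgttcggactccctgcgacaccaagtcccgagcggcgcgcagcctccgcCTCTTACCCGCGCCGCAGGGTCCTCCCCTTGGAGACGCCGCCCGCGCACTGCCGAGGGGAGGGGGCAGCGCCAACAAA
Col4a2: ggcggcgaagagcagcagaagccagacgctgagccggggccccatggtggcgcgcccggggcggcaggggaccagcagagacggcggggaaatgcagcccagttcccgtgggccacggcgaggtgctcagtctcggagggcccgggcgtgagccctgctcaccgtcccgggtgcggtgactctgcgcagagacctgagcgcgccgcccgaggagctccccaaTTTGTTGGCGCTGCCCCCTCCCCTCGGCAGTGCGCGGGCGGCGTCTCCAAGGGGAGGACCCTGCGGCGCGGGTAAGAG
Both windows hold GGGCGG, the core of an Sp1 box, and CCAAT on at least 1 strand. GGGCGG occurs in 35.7% of 32851 RefSeq promoter windows of this length and CCAAT in 37.4%. Neither window holds TATAAA (13.6% of windows) or AGATAA, the core bound by GATA factors (11.2%). Of the 41 members, 25 matched a promoter window, and 17 of these held GGGCGG, 12 CCAAT, 4 TATAAA and 0 AGATAA. These matches describe the letters only.

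Splicing adds a second layer to several members, and 4 exons recur below. The first pair encode the extra type III domains of fibronectin, which are characteristic of the cellular rather than the plasma form of the protein. Another lies in the C-terminal region of periostin and the last is a microexon of Col11a1, an alpha chain of collagen XI. Sequences are from GENCODE vM21 transcripts on GRCm38, and capitals mark GAAGA, a purine-rich motif of exonic splicing enhancers.
Fn1 EIIIB, 273 nt, chr1:71613763-71614035, minus strand, exon 25 of Fn1-201: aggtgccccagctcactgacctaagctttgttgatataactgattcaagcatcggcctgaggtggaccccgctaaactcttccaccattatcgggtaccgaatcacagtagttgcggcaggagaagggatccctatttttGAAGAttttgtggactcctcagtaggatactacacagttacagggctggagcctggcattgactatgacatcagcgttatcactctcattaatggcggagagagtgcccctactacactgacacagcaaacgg
Fn1 EIIIA, 270 nt, chr1:71603660-71603929, minus strand, exon 32 of Fn1-214: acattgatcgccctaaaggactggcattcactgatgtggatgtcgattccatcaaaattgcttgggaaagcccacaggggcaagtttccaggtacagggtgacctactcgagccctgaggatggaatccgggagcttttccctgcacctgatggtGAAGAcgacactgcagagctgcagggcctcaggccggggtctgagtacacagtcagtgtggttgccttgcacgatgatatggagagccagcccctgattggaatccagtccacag
Postn, 81 nt, chr3:54380412-54380492, plus strand, exon 17 of Postn-203: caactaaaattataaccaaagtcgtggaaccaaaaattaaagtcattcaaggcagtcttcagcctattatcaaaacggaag
Col11a1, 16 nt, chr3:114138171-114138186, plus strand, exon 4 of Col11a1-207: gctttcagatgtcact
GAAGA was found 1 time in each fibronectin exon, as in 51.9% of 2503 internal exons of 260 to 280 nt. The Fox-protein motif TGCATG (6.63% of those exons) and the GU repeat TGTGTG (10.8%) were in none of the 4 exons. Only the sense strand was searched in exons.

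The mRNAs of Sparc, fibronectin and collagen XVIII ranked highest among the members in undifferentiated WT cells. By RPKM the highest members were Sparc (198.19), a collagen-binding matricellular protein, Fn1 (146.77), which encodes fibronectin, Col18a1 (132.04), a basement membrane collagen, and Nid2 (97.61), a nidogen. Embryoid bodies kept Sparc first at 137.3 RPKM and Fn1 next at 56.81 RPKM, and Col4a1 followed at 53.61 RPKM. In the neuron cultures Sparc reached 377.2 RPKM, Col4a1 186.07 RPKM and Col4a2 117.57 RPKM, whereas Fn1 stood at 8.9 RPKM. Each RPKM is 1 value per group, so these orders carry no error.

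Between ESC and EB8 in WT, 10 of 14 collagens rose and 1 fell, while 5 of 7 basement membrane glycoproteins fell and 1 rose. Of the 41 members, 14 rose and 10 fell, and their median change was 0.32. Over all genes tested, 39.9% were called (21.7% higher and 18.2% lower). Scaling libraries to their total reads, which moves the median of all genes up by 0.42, gives 17 members higher and 7 lower in place of 14 and 10. On that scale, 4260 of 5747 called genes were higher, against 3023 of 5565 here.

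Of the 7 other collagens, 6 rose. Col4a1 went from 119 and 153 CPM at ESC to 761 and 570 CPM at EB8, a change of 2.27 ± 0.37 (SE, adjusted p = 2.14e-05). Col4a2 rose by 2.51 ± 0.32. Col12a1, which decorates collagen fibrils, rose by 2.76 ± 0.52, and the 3 collagen VI genes, whose product forms beaded filaments, rose by 1.69 to 2.08. Col18a1 fell from 1096 and 985 CPM to 455 and 376 CPM (-1.33 ± 0.43), a call that was lost without EB8 library B. Among the 7 fibrillar collagens, Col3a1, Col5a2, Col2a1 and Col11a1 rose and 0 fell. Col3a1, found in extensible tissues, rose most in this role list, from 7.76 and 9.75 CPM to 131 and 59.99 CPM (3.21 ± 0.62, adjusted p = 0.000171). Col1a1, at 101 and 120 CPM before and 90.1 and 46.4 CPM after, was not called.

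Basement membrane glycoproteins went the other way, with 5 of 7 falling and 1 rising. Hspg2, which encodes the heparan sulphate proteoglycan perlecan, fell from 925 and 934 CPM to 72.3 and 98.8 CPM (-3.44 ± 0.61, adjusted p = 6.66e-05). Nid2 fell from 538 and 562 CPM to 72.5 and 97.4 CPM, and Nid1, Lamc1 and Lamb1 fell by 1.48 to 1.91. The lowest ESC library exceeded the highest EB8 library for each of these 5 genes. Lama1, the alpha chain of laminin-111, stood at 153 and 146 CPM and then at 295 and 254 CPM, and its change did not reach 2-fold. Lama4, an alpha chain of vascular laminins, rose by 1.15 ± 0.32.

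The adhesive genes fell with them in 3 of 6 cases. Thbs1, which encodes an adhesive glycoprotein that activates latent TGF-beta, fell from 156 and 196 CPM to 15.8 and 12 CPM (-3.58 ± 0.24, adjusted p = 3.22e-11), and Tnc and Fn1 fell by 2.48 and 1.45. Postn, which encodes periostin, rose from 0.58 and 0.60 CPM to 14.2 and 8.32 CPM. Of the inhibitors of matrix metalloproteinases, Timp1 fell from 21.9 and 22.6 CPM to 3.73 and 3.28 CPM, while Timp2 rose from 9.26 and 12.6 CPM to 67.9 and 63.4 CPM. Among the 5 proteoglycans Dcn (decorin) was called higher, and no call fell on the 5 elastic fibre genes. The calls for Dcn and Lama4 were lost without ESC library A, and those for Dcn and Col6a3 without EB8 library A.

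From EB8 to DIV7 in WT, 23 members rose and 4 fell, with a median change of 1.18, against 30.3% of all genes called (17.6% higher and 12.7% lower). Tnc, which encodes tenascin-C, an anti-adhesive protein of developing brain and glia, went from 0.71 and 0.91 CPM to 90.8 and 105 CPM. Its change of 5.77 ± 0.30 (adjusted p = 1.54e-12) was the largest among the members. Dcn rose from 3.47 and 1.61 CPM to 70.3 and 16.9 CPM, and the collagen VI gene Col6a3 from 7.29 and 2.80 CPM to 88.4 and 42.5 CPM. The 3 genes of type I and III collagen rose together: Col1a1 by 2.43 ± 0.68, Col1a2 by 2.43 ± 0.64 and Col3a1 by 2.52 ± 0.62.

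Of the 7 basement membrane glycoproteins 4 rose and 0 fell, and both collagen IV genes rose. Col4a1 reached 3388 and 1429 CPM and Col4a2 2134 and 952 CPM, changes of 1.74 ± 0.37 and 1.88 ± 0.32. Lamb1 and Lamc1, the beta and gamma chains of laminin-111, rose by 1.85 ± 0.38 and 1.48 ± 0.29, and Nid1 and Lama4 by 1.18 and 1.10. Lama1, Nid2 and Hspg2 were not called, with Nid2 at 72.5 and 97.4 CPM before and 123 and 34.4 CPM after, and Hspg2 at 72.3 and 98.8 CPM before and 108 and 32.7 CPM after. The adhesive genes Thbs2, Postn and Sparc rose by 1.44 to 2.24, and the proteoglycans Bgn (biglycan), Lum (lumican) and Ogn by 1.17 to 2.5. Timp3 rose from 5.70 and 4.36 CPM to 32.3 and 29.3 CPM. In the falling direction were Fn1, from 564 and 704 CPM to 141 and 65.8 CPM (-2.70 ± 0.41), Col18a1 (-2.84 ± 0.43), Col2a1, the collagen of cartilage (-2.25 ± 0.26), and Col12a1 (-1.68 ± 0.52).

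The WT neuron libraries themselves were uneven for these genes. In the WT DIV7 pair, 40 of 41 members were higher in library A, by a median of 1.10 on the log2 scale, and 26 were at least 2-fold apart. The Puf60_mEx5_HOM pair was alike, with 40 of 41 higher in A and 23 at least 2-fold apart. In the Puf60_pEx5_HET pair 32 of 41 were higher in A and 15 at least 2-fold apart. The Rbm38KO pair had 3 genes that far apart, the Puf60_pEx5_HOM pair 2 and the ESC pairs 0 to 2. Without WT library A, 21 members were called in place of 27, and the calls for Col1a1, Col1a2, Col6a2, Lama4, Lamc1, Lox, Nid1 and Ogn were among those lost. The call for Col12a1 was lost without EB8 library B or DIV7 library B. Markers of some other cell types rose along with the matrix genes, and those of others did not. Of 12 extraembryonic endoderm markers 7 rose and 2 fell, and 5 of 7 astrocyte markers rose. Of 11 fibroblast and mesenchyme markers 3 rose and 2 fell, near the shares of all genes (17.6% higher and 12.7% lower). Over the libraries of all 5 lines, smooth muscle and pericyte markers summed to 320 to 463 CPM at EB8 and to 136 to 259 CPM at DIV7. Chondrocyte marker sums were also lower at DIV7. The part of these cells in the result was not tested.

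**Figure D1:**
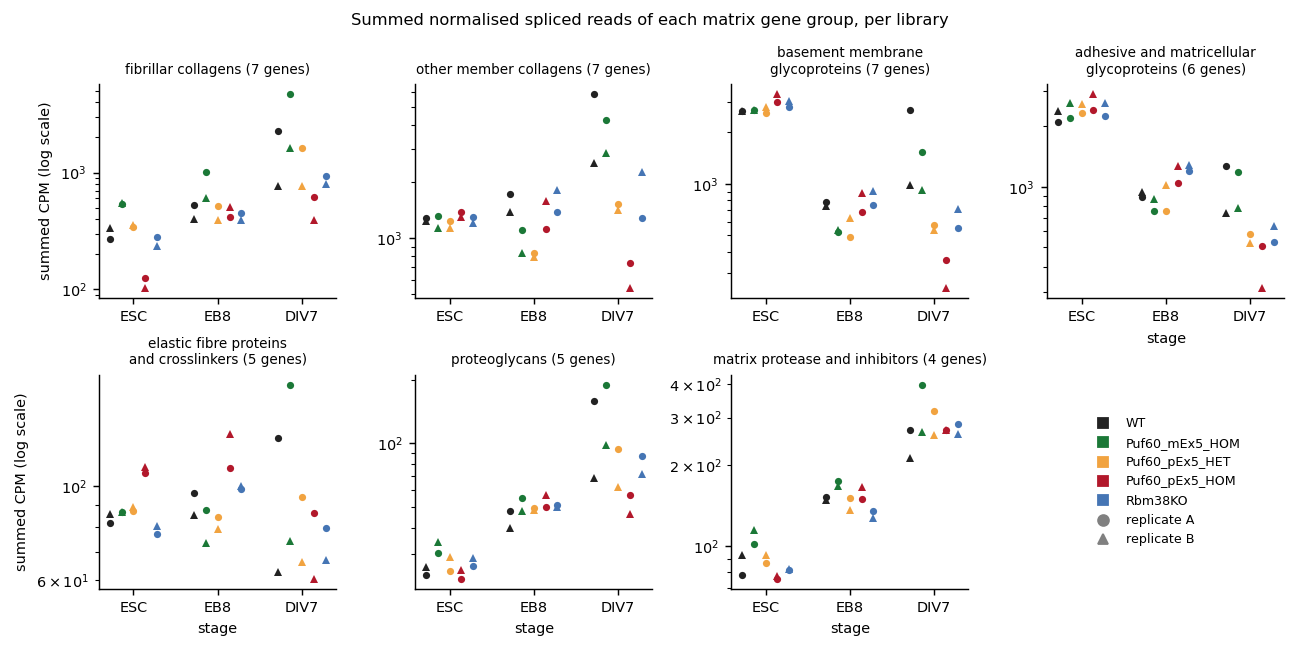
Summed level of each role list of matrix genes (CPM of spliced reads, log axis) in every library of the 5 lines at ESC, EB8 and DIV7. Points are single libraries (circle A, triangle B). At DIV7 the basement membrane glycoproteins sum to 2696 and 989 CPM in WT and to 358 and 247 CPM in Puf60_pEx5_HOM.

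Undifferentiated cells that always include Puf60 exon 5 had less fibrillar collagen and matricellular mRNA than WT. In Puf60_pEx5_HOM, 11 members fell and 0 rose at the ESC stage, with a median over the 41 of -0.39, while 2.47% of all genes were called (1.5% lower). The fallen members were 4 of 7 fibrillar collagens, 2 of 7 other collagens, 3 of 6 adhesive glycoproteins, 1 of 5 proteoglycans and 1 of 4 inhibitors. With voom weights 4 members were called in place of 11. No basement membrane glycoprotein was called, and their summed level was 2989 and 3329 CPM against 2648 and 2645 CPM in WT.

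The 2 chains of type I collagen, the main protein of bone and tendon, led the list. Col1a1 stood at 28.03 and 9.71 CPM in Puf60_pEx5_HOM and at 101 and 120 CPM in WT (-2.65 ± 0.68, adjusted p = 0.0122). Col1a2 stood at 8.18 and 3.48 CPM against 24.5 and 33.7 CPM (-2.21 ± 0.64, adjusted p = 0.0238). The pairs did not overlap for either gene. Both calls were lost without WT library B or Puf60_pEx5_HOM library B, and that of Col1a2 also without WT library A. Col3a1 (-1.95), Col12a1 (-1.81), Col5a2 (-1.51), Bgn (-1.32) and Col4a2 (-1.04) also fell.

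Smaller errors came with 3 genes that were called whichever of the 4 libraries was left out. Thbs1 stood at 45.0 and 51.6 CPM against 156 and 196 CPM (-1.84 ± 0.24, adjusted p = 2.4e-05). Tnc stood at 1.76 and 0.72 CPM against 7.66 and 10.8 CPM (-2.21 ± 0.30, adjusted p = 4.1e-05). Timp2 stood at 3.73 and 4.26 CPM against 9.26 and 12.6 CPM (-1.24 ± 0.17, adjusted p = 3.3e-05). In each case the edited pair lay below the WT pair. Thbs2, a relative of Thbs1, fell by 1.49 ± 0.37.

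Genes of collagen synthesis moved in part with them at this stage: of 32 tested, 3 fell and 1 rose. Serpinh1, the collagen-specific chaperone HSP47, stood at 46.8 and 52.8 CPM against 91.7 and 145 CPM (-1.20). Bmp1, which cleaves the C-terminal propeptide of fibrillar procollagen, fell by 1.79. Of 21 genes of the TGF-beta pathway and its matrix targets, 3 fell: Cyr61 (-1.69), Tgfb2 (-1.39) and Wisp1 (-1.03). Of 11 smooth muscle and pericyte markers, 6 fell, and their sum was 400 and 391 CPM against 659 and 868 CPM in WT. All 11 were detected in both groups. Acta2, smooth muscle actin, stood at 2.76 and 1.51 CPM against 38.0 and 60.9 CPM. Their part in the result was not tested.

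At the same stage limma called 0 members in the other 3 lines against WT. Of all genes, 0.0789%, 0.0359% and 0.0359% were called in Puf60_mEx5_HOM, Puf60_pEx5_HET and Rbm38KO. At limma's unadjusted p under 0.05 there were 5, 0 and 1 members in that order. The share of all genes at that looser level is not given, so these counts cannot be set against other genes. With voom weights 0 members were called in each of the 3 lines. Col1a1 in Puf60_mEx5_HOM stood at 259 and 260 CPM, above both WT libraries, and Col1a2 at 73.9 and 77.4 CPM, neither being called.

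Set directly against each other, Puf60_mEx5_HOM and Puf60_pEx5_HOM differed in 13 members at the ESC stage, all 13 higher in the former, against 2.47% of all genes (1.59% higher). With voom weights 8 members were called. These were led by Col1a1 (3.89 ± 0.68, adjusted p = 0.000749), Col1a2 (3.58 ± 0.64) and Tnc (3.03 ± 0.30). For Tnc the levels were 14.4 and 19.5 CPM in Puf60_mEx5_HOM. Col5a1, an alpha chain of the collagen V that nucleates fibrils, and Postn were called here (1.29 and 1.34) and not against WT. Both calls were lost without any 1 of the 4 libraries. Postn averaged 1.66 CPM in Puf60_mEx5_HOM, 0.59 CPM in WT and 0.052 CPM in Puf60_pEx5_HOM. At such levels the added 1 CPM damps a log2 change. The authors' log2 change of Postn in Puf60_pEx5_HOM against WT was -3.64 (false discovery rate 0.0051). The comparison shares the Puf60_pEx5_HOM libraries with that against WT.

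**Figure D2:**
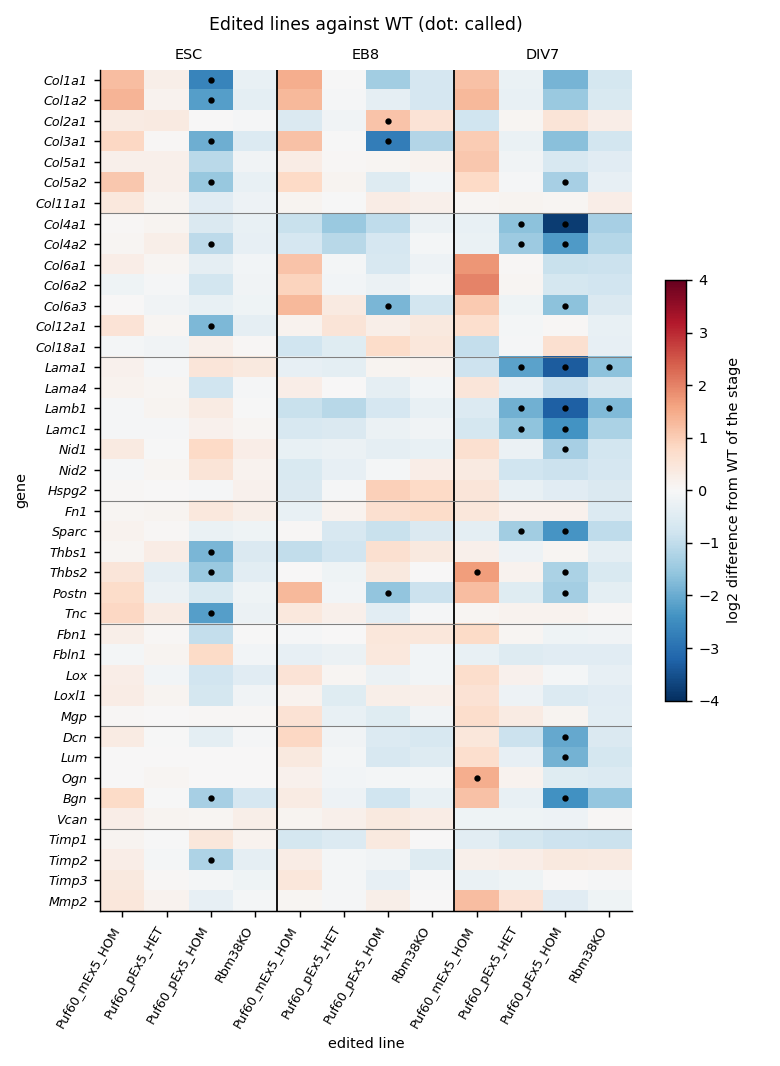
Log2 fold change of each of the 41 members against WT of the same stage (colour, blue lower and red higher) in the 4 edited lines at ESC, EB8 and DIV7, with rows ordered by role. Dots mark called changes. Puf60_pEx5_HOM has 11 dots in stem cells, 4 in embryoid bodies and 14 in neurons.

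In embryoid bodies fewer members separated Puf60_pEx5_HOM from WT: 3 fell and 1 rose, with 1.66% of all genes called (0.215% higher and 1.44% lower). Col3a1 stood at 17.7 and 8.45 CPM against 131 and 59.99 CPM (-2.75 ± 0.62, adjusted p = 0.00846). Col6a3 (-1.81 ± 0.52) and Postn (-1.58 ± 0.45) also fell. Col2a1 rose, from 101 and 116 CPM in WT to 207 and 282 CPM (1.15 ± 0.26, adjusted p = 0.00602). Each of these 4 calls was lost without WT library A. With voom weights 2 were called.

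Limma called 0 members at EB8 in Puf60_mEx5_HOM, Puf60_pEx5_HET and Rbm38KO, where 1.64%, 0.115% and 0.0430% of all genes were called. At limma's unadjusted p under 0.05 there were 13, 6 and 2 members in that order. The share of all genes at that looser level is not given, so these counts cannot be set against other genes. With voom weights 1, 0 and 0 members were called. By the authors' false discovery rate, 1 member was under 0.05 in Puf60_mEx5_HOM, 0 in Puf60_pEx5_HET and 0 in Rbm38KO. That member was Thbs1, lower in Puf60_mEx5_HOM (authors' log2 change -1.17, false discovery rate 0.000126). Puf60_mEx5_HOM against Puf60_pEx5_HOM gave 11 members higher and 4 lower, against 9.99% of all genes (6.95% higher and 3.05% lower). Col3a1 was 305 and 135 CPM in Puf60_mEx5_HOM (3.94 ± 0.62, adjusted p = 8.6e-05), followed by Col6a3 (3.10), Postn (2.87) and Col1a1 (2.87). The members lower in Puf60_mEx5_HOM were Col2a1 (-1.71), Thbs1 (-1.63), Col18a1 (-1.52) and Timp1 (-1.09).

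In neuron cultures Puf60_pEx5_HOM had less mRNA for collagen IV and for all 3 chains of laminin-111 than WT. At DIV7, 14 members fell and 0 rose, with a median over the 41 of -0.81, against 2.57% of all genes (1.7% lower). They included 4 of 7 basement membrane glycoproteins, 3 of 7 other collagens, 3 of 5 proteoglycans, 3 of 6 adhesive glycoproteins and 1 of 7 fibrillar collagens.

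Col4a1 stood at 197 and 127 CPM in Puf60_pEx5_HOM and at 3388 and 1429 CPM in WT, a 13.8-fold difference (-3.79 ± 0.37, adjusted p = 5.9e-06). Its partner Col4a2 stood at 353 and 247 CPM against 2134 and 952 CPM (-2.27 ± 0.32, adjusted p = 0.00025). The spliced reads of Col4a1 relative to Col4a2 were 0.558 and 0.515 in Puf60_pEx5_HOM at DIV7, against 1.59 and 1.50 in WT and 1.17 to 1.54 in the other 3 lines. In RPKM, which allows for length, the Col4a1 level was 0.554 times that of Col4a2 in this line. The ratio was not low in this line at ESC, where it was 2.90 and 2.79 against 2.11 and 1.96 in WT. At EB8 it was 1.41 and 1.27 against 1.75 and 1.67 in WT. The other edited lines also lay below WT at EB8. The ratio was 1.40 and 1.27 in Puf60_pEx5_HET, 1.50 and 1.40 in Puf60_mEx5_HOM, and 1.50 and 1.54 in Rbm38KO. No test was made of the ratio itself.

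**Figure D3:**
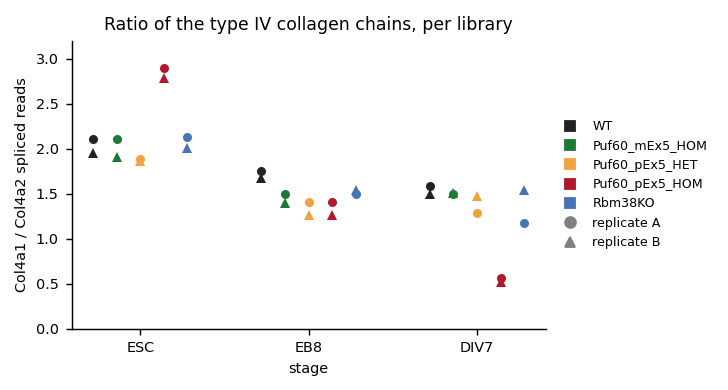
Ratio of spliced reads of Col4a1 to those of Col4a2 in each library (circle A, triangle B) of the 5 lines at ESC, EB8 and DIV7. At DIV7 both Puf60_pEx5_HOM libraries lie at 0.558 and 0.515, below the other 8.

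All 3 chains of laminin-111, the laminin of the earliest basement membranes, fell in the same cultures. Lama1 stood at 64.8 and 44.3 CPM against 920 and 323 CPM (-3.32 ± 0.33, adjusted p = 5.9e-06). Lamb1 stood at 48.5 and 40.8 CPM against 727 and 265 CPM (-3.28 ± 0.38, adjusted p = 3.53e-05). Lamc1 stood at 94.5 and 68.1 CPM against 678 and 269 CPM (-2.40 ± 0.29, adjusted p = 4.53e-05). In all 3 genes the higher edited library was below the lower WT library. Sparc, which binds collagen IV, fell from 908 and 515 CPM to 189 and 93.4 CPM (-2.35 ± 0.30), and Nid1, which bridges laminin and collagen IV, from 103 and 48.7 CPM to 33.5 and 22.2 CPM (-1.34 ± 0.36).

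**Figure D4:**
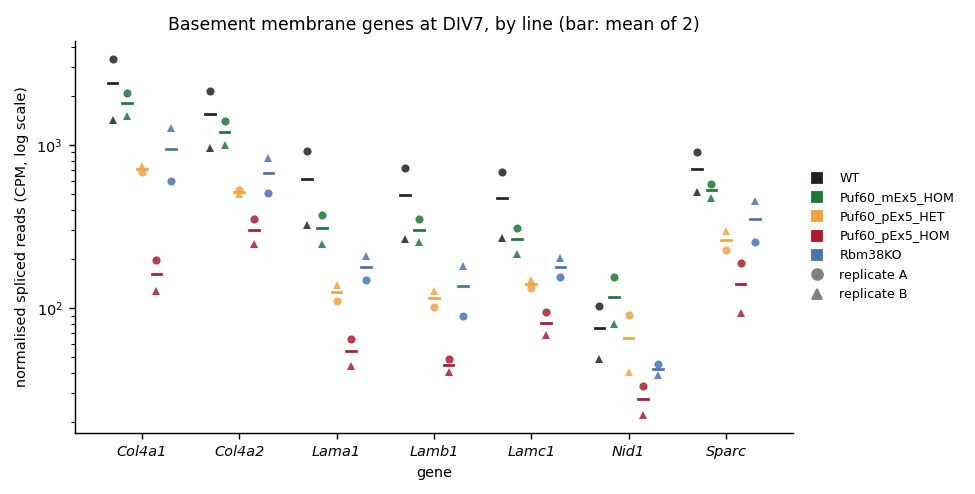
Spliced reads (CPM, log axis) of basement membrane genes in each DIV7 library of the 5 lines (circle A, triangle B). For Col4a1 both Puf60_pEx5_HOM libraries (197 and 127 CPM) lie below the lowest library of every other line (599 CPM).

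The small leucine-rich proteoglycans that regulate fibril width fell in part. Bgn stood at 1.60 and 2.15 CPM against 23.3 and 8.65 CPM (-2.42 ± 0.41, adjusted p = 0.000755), Dcn at 8.47 and 6.78 CPM against 70.3 and 16.9 CPM (-2.06 ± 0.47) and Lum at 0.28 and 0.49 CPM against 5.68 and 2.87 CPM (-1.88 ± 0.33). Col6a3, Postn, Col5a2 and Thbs2 fell by 1.26 to 1.64. Type I and III collagen did not pass: Col1a1 stood at 127 and 74.6 CPM against 681 and 183 CPM (-1.85 ± 0.68, adjusted p = 0.0758) and Col3a1 at 200 and 129 CPM against 882 and 297 CPM (-1.67, adjusted p = 0.0807). Tnc, Timp2 and Timp3, which had risen in WT neurons, were not called here, with Tnc at 163 and 70.0 CPM, Timp2 at 199.98 and 208 CPM and Timp3 at 32.8 and 29.7 CPM. The calls for Bgn, Col4a1, Col4a2, Lama1, Lamb1, Lamc1, Lum and Sparc held whichever library was left out. The other 6 were lost without WT library A and also without Puf60_pEx5_HOM library B, when 9 and 8 members were called. By the false discovery rate in the authors' deposited table, 12 members were under 0.05 in this comparison, 11 of them among these 14. For this line, 11 of 11 calls at ESC and 3 of 4 at EB8 were under 0.05 there in the same direction. The authors' rate was under 0.05 for 14 members at ESC and 5 at EB8. Those not called here were Postn, Lox and Loxl1 at ESC, and Lum and Thbs1 at EB8. At DIV7 the authors' rate was under 0.05 in the same direction for 5 of 6 calls in Puf60_pEx5_HET, 1 of 2 in Rbm38KO and 0 of 2 in Puf60_mEx5_HOM.

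Of 32 genes that build and modify collagen, 5 fell and 0 rose. P4ha2, a prolyl 4-hydroxylase subunit, stood at 20.3 and 19.8 CPM against 171 and 94.8 CPM (-2.61). Loxl2, a lysyl oxidase that crosslinks collagen IV, stood at 7.55 and 6.10 CPM against 56.5 and 35.1 CPM (-2.55), and Serpinh1 fell by 1.51. Of 26 further collagen genes, Col15a1, Col16a1 and the collagen IV gene Col4a5 fell (-1.89, -1.48 and -1.02). Of 16 further laminin and basement membrane genes, Lamc3, Frem1 and Egflam fell (-1.39, -1.30 and -1.28). Of 22 further proteases and inhibitors, Adamts9 and Mmp14 fell (-2.77 and -1.17). Of 28 matrix receptors only Itgb5 was called, lower. Of 16 genes of the brain's own matrix only Hapln4 was called, higher.

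Markers of other cells moved with this result. Of 12 extraembryonic endoderm markers tested, 7 fell and 0 rose, and their sum was 45.6 and 34.3 CPM against 239 and 117 CPM in WT. Gata4 stood at 0.14 and 0.26 CPM against 15.9 and 6.14 CPM, and Dab2 at 2.20 and 2.60 CPM against 33.7 and 15.5 CPM. None of the 14 markers in the table was at 0 in either group. Of 11 fibroblast and mesenchyme markers, Pdgfra, Fap and Pdgfrb fell, and the sum was 57.9 and 31.1 CPM against 125 and 86.0 CPM. All 16 of that list had reads in both groups. Of 7 astrocyte markers 3 fell, with Gfap at 8.61 and 7.34 CPM against 173 and 88.8 CPM. Of 9 stem cell markers 7 rose and 1 fell, with a sum of 172 and 250 CPM against 65.8 and 68.0 CPM. Neuron markers summed to 4457 and 4967 CPM against 4238 and 4978 CPM, and 0 of the 12 were called. The part of these cells in the result was not tested.

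In neurons, 2 further lines had lower levels of laminin-111 genes. In Puf60_pEx5_HET 6 members fell and 0 rose, against 0.574% of all genes (0.531% lower). Lama1 stood at 110 and 139 CPM (-2.13 ± 0.33, adjusted p = 0.00224), Lamb1 at 101.98 and 127 CPM (-1.94 ± 0.38) and Lamc1 at 133 and 148 CPM (-1.60 ± 0.29). Col4a1, at 679 and 738 CPM, fell by 1.64 ± 0.37, Col4a2 by 1.47 ± 0.32 and Sparc by 1.39 ± 0.30. In Rbm38KO 2 members fell, against 0.301% of all genes (0.294% lower): Lamb1 at 89.3 and 182 CPM (-1.77 ± 0.38, adjusted p = 0.0413) and Lama1 at 149 and 208 CPM (-1.63 ± 0.33, adjusted p = 0.0309). All of these values lay below both WT libraries. For Rbm38KO the authors' false discovery rate was 0.0243 for Lama1 and 0.134 for Lamb1. Without WT library A or without Puf60_pEx5_HET library A, the call for Lama1 was the only one of the 6 left in Puf60_pEx5_HET, and those for Col4a1 and Col4a2 were lost without its library B too. In Rbm38KO both calls were lost without WT library A or Rbm38KO library A, while 10 members were called without WT library B and 0 with voom weights. Extraembryonic endoderm markers summed to 51.4 and 84.8 CPM in Puf60_pEx5_HET, with 6 of 12 lower, and to 86.8 and 116 CPM in Rbm38KO, with 1 of 12 lower and Afp at 0 in both libraries. Their part was not tested.

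In Puf60_mEx5_HOM neurons 2 members rose and 0 fell, against 0.395% of all genes (0.179% higher). Thbs2 stood at 86.9 and 29.9 CPM against 20.1 and 11.9 CPM in WT (1.66 ± 0.37, adjusted p = 0.0323), and Ogn, which encodes the proteoglycan osteoglycin, at 8.65 and 3.65 CPM against 2.43 and 0.77 CPM (1.44 ± 0.32, adjusted p = 0.0281). Both calls were lost without library A of Puf60_mEx5_HOM or library B of WT, and that of Thbs2 also without WT library A. The authors' false discovery rate was 0.0959 for Thbs2 and 0.737 for Ogn. The collagen VI gene Col6a2, at 295 and 115 CPM against 69.6 and 29.8 CPM, had an adjusted p of 0.0503. Of 26 further collagen genes 3 rose, Col6a6, Col14a1 and Col5a3 (2.56, 1.62 and 1.21). Fibroblast and mesenchyme markers summed to 144 and 89.0 CPM in this line.

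The 2 homozygous Puf60 lines were also compared directly at DIV7. Of the 41 members, 24 were higher in Puf60_mEx5_HOM and 2 lower, with a median of 1.71, against 2.78% of all genes (1.54% higher and 1.25% lower). All 7 role lists had at least 1 higher member. Bgn differed most, at 49.1 and 22.8 CPM against 1.60 and 2.15 CPM (3.60 ± 0.41, adjusted p = 1.24e-05), followed by Col4a1 (3.48 ± 0.37), Col1a1 (3.01 ± 0.68) and Thbs2 (2.92 ± 0.37). Fibrillar collagens summed to 4696 and 1630 CPM in Puf60_mEx5_HOM against 623 and 391 CPM, and 5 of 7 were called higher. Mmp2, a gelatinase that cleaves collagen IV, was also higher (1.71 ± 0.32), at 163 and 77.4 CPM against 35.9 and 31.7 CPM. Col18a1 (-1.57 ± 0.43) and Col2a1 (-1.30 ± 0.26) were lower. Of the 26 calls 18 held whichever library was left out, and those for Col1a1, Col1a2, Col3a1, Col5a1 and Lama4 were lost without Puf60_mEx5_HOM library A or Puf60_pEx5_HOM library B. The call for Col2a1 was lost without Puf60_mEx5_HOM library B, and those for Col18a1 and Loxl1 without any 1 of 3 libraries, both of Puf60_pEx5_HOM being among them. Across the 17 comparisons, Col4a2, Col3a1 and Postn were called most often, in 7 each, while Vcan, Fbn1 and Fbln1 were called in 0.

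The inclusion of the fibronectin extra domains followed the stages. Percent spliced in (PSI) is the share of transcripts that include an exon, and a splicing event was called when limma's adjusted p was under 0.05 and the group means differed by at least 10 points. In WT, EIIIB, printed above, was included at 81.3% ± 3.16 at ESC (SD, n = 2), at 97.9% ± 0.495 in embryoid bodies and at 48.7% ± 4.79 in neurons. The limma adjusted p-values of these steps were 1.1e-07 and 1.69e-10. EIIIA went from 97.4% at EB8 to 66.0% ± 7.13 at DIV7 (adjusted p by limma = 8.07e-11). Both domains were skipped more often in the neuron cultures, where Fn1 itself was lower.

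Puf60_pEx5_HOM neurons included EIIIB more than WT neurons. The libraries stood at 81.4% and 87.6% against 52.0% and 45.3%, a difference of 35.8 points (limma adjusted p = 0.00299). Puf60_mEx5_HOM stood at 57.5% and 51.5%, 30.0 points lower than Puf60_pEx5_HOM (limma adjusted p = 0.00421). The call against WT held whichever of the 4 libraries was left out, but was lost when reads were not used as weights (limma adjusted p = 0.16). The call between the homozygous lines was lost without Puf60_pEx5_HOM library B. Puf60_pEx5_HET, at 61.8% and 76.7%, and Rbm38KO, at 75.0% and 77.8%, lay above WT in both libraries, but their differences did not pass (limma adjusted p = 0.789 and 0.968). At ESC the Puf60_pEx5_HOM value of 90.6% ± 0.962 was 9.33 points above WT, under the threshold of 10. EIIIA was not called between lines.

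**Figure D5:**
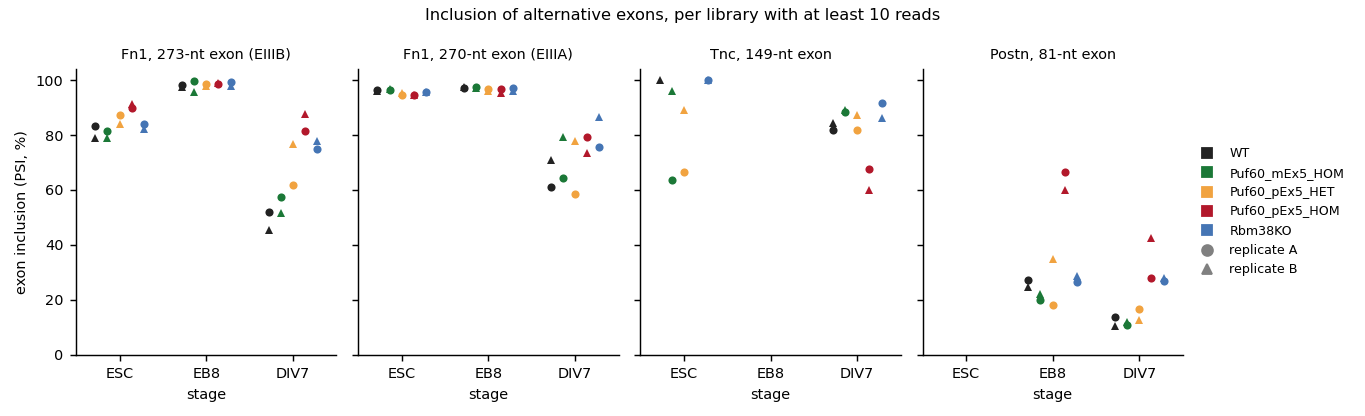
Inclusion (PSI, percent) of 4 member exons in each library of the 5 lines at each stage, shown where a library had at least 10 informative reads (circle A, triangle B). For Fn1 EIIIB at DIV7, Puf60_pEx5_HOM lies at 81.4% and 87.6% and WT at 52.0% and 45.3%.

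Periostin and tenascin-C changed isoforms in the same line. The 81-nt Postn exon was included at 28% and 42.5% in Puf60_pEx5_HOM neurons against 13.6% and 10.3% in WT (23.3 points, limma adjusted p = 0.0023). At EB8 it stood at 63.3% ± 4.72 (SD, n = 2) against 25.8% ± 1.79 (limma adjusted p = 0.0391), with as few as 10 reads in a library, and this was the only call among the 45 member events tested there, against 2.54% of all events. The same exon was the 1 member event called between the homozygous lines at EB8 (-42.3 points, limma adjusted p = 0.00214), against 6.98% of all events. A 149-nt exon of Tnc stood at 63.7% ± 5.35 in Puf60_pEx5_HOM neurons against 83.1% ± 1.85 in WT (SD, n = 2, limma adjusted p = 0.0405). In all, 4 of 45 member events tested were called in that comparison, against 1.61% of all events, and 0 without read weights. The Postn call in neurons was lost without WT library A or Puf60_pEx5_HOM library B, that in embryoid bodies without any 1 of the 4 libraries, and so was that of the 149-nt Tnc exon. In the comparison of the 2 homozygous lines at DIV7, 7 of 43 were called, against 3.33%, and 1 without read weights: 4 exons of Tnc, 1 of Fbn1, the 81-nt exon of Postn and EIIIB of Fn1.

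Other members had stage-dependent exons in WT. The 16-nt microexon of Col11a1 stood at 0% in both ESC libraries, at 3.36% ± 4.75 at EB8 and at 42.2% ± 11.4 at DIV7 (SD, n = 2, limma adjusted p = 0.000139 from EB8 to DIV7). The 2880-nt exon of Vcan, which carries a chondroitin sulphate attachment region of versican, went from 27.5% ± 2.47 to 58.5% ± 4.38 (limma adjusted p = 1.22e-05), while the gene's level was not called. A 46-nt exon of Hspg2 fell from 30.5% to 9.99% between ESC and EB8 (limma adjusted p = 0.00626). In Rbm38KO stem cells the same exon stood at 14.4% ± 1.30 against 30.5% ± 0.0849 in WT (SD, n = 2, limma adjusted p = 0.0216), a call lost without any 1 of the 4 libraries, at a minimum of 20 reads and without read weights. Among all events, 12.4% were called from ESC to EB8, 15.8% from EB8 to DIV7 and 0.00762% in Rbm38KO stem cells, and among member events 3 of 42, 5 of 41 and 1 of 45.

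In stem cells a 205-nt exon of Fbln1, which encodes the elastic fibre protein fibulin-1, was included less in Puf60_pEx5_HOM, at 33.6% and 28.7% against 50% and 60.4% in WT (limma adjusted p = 0.000155). At EB8 the same line stood at 48.6% ± 0.523 against 60.9% ± 1.98 and at DIV7 at 40.5% ± 0.559 against 50.9% ± 1.33 (SD, n = 2), neither difference being called. Fbln1 was the only member with a called event among the 37 tested in that comparison, against 1.59% of all events. Between the homozygous lines at ESC 3 of 39 were called, in Fbln1, Fn1 (EIIIB) and Col5a1, against 2.43%.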

How the data were processed

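RNA was sequenced from polyA-selected, strand-specific libraries of 5 lines at 3 stages, 2 libraries per group. Salmon 0.14.1, edgeR and the build mm10 appear in the submitters' processing notes, without their roles. Per the file headers, the authors deposited 1 RPKM value per gene and group, log2 fold changes and p-values (with false discovery rates) of each line against the parental line, and, per library, percent spliced in with quality strings that hold read numbers for each event. No column of values belonged to an unmapped sample (0 columns).

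Because expression was given per group only, replicate levels were taken from the exon-exon junction reads that the quality strings of intron events record, summed per gene. A gene with few introns is measured less precisely this way, and retained introns or isoforms with other junctions can shift its value. Levels were scaled by median-of-ratios factors, and a gene was tested if 2 or more libraries reached 1 CPM. log2(CPM + 1) was fitted with limma 3.58.1 in R 4.3.3 over all 30 libraries and 15 group means (15 residual degrees of freedom, trend and robust moderation). Splicing events with a mean inclusion of 5% to 95% were fitted with limma on the log2 ratio of inclusion to exclusion reads with 1 pseudoread, weighted by read number, and libraries under 10 reads were set as missing. Puf60_pEx5_HOM against WT at DIV7 was simulated, with 12873 genes tested. Of genes changed by 1, 1.5 and 2 on the log2 scale, 42%, 94% and 100% were called, with 0 false calls. The simulation used 1 common setting for the spread between replicates, and its changed genes were drawn only from levels well above the limit of 1 CPM. In the real WT pair at DIV7, 26 of 41 members were at least 2-fold apart. So these shares cannot be carried over to members that uneven or to members with few reads. In simulated splicing of that comparison, with 28561 events, 64% of changes of 20 points were called, with 3 false calls. The changed events were drawn only from those with inclusion in the middle of the range and well over 10 reads in each compared library. That share cannot be carried over to events with fewer reads or with inclusion nearer the ends.

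The members and gene lists were chosen with earlier results of these data known, so a list's direction is not independent evidence. Called members are named, those with the largest change first, and of the other lists up to 3 called genes. Member cassette exons called in any comparison and the alternative exons of Fn1 are named, and the remainder was left out. Genes given without a call, and Reln and Tnr, were named beyond that rule, after their values were seen. Scaling, pseudocount, weights, thresholds, a replicate term and leaving out each library were varied.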

Additional observations from a re-analysis of the deposited data

Results flagged for a closer look

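The effect of constitutive inclusion of exon 5 on both alleles (Puf60_pEx5_HOM minus WT) was compared between stages for the 41 members with limma, and 24 differences had an adjusted p under 0.05. The same test gave 0 for Puf60_mEx5_HOM, Puf60_pEx5_HET and Rbm38KO. No 2-fold threshold was applied to these differences. The share of all genes passing is not given, so these numbers cannot be set against other genes. All values below are differences between 2 log2 effects.

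Between DIV7 and EB8 the effect was more negative for Lama1 (-3.42, limma adjusted p = 0.000229), Col4a1 (-2.78), Lamb1 (-2.61), Lamc1 (-2.17), Col4a2 (-1.61), Sparc (-1.45) and Timp1 (-1.19). Between DIV7 and ESC it was more negative for Lama1 (-3.82, limma adjusted p = 7.07e-05), Lamb1 (-3.60), Col4a1 (-3.21), Lamc1 (-2.57), Nid1 (-2.15), Sparc (-2.08), Timp1 (-1.25) and Fbln1 (-1.23). Lum (-1.88) also passed, but it had 0 reads in all ESC libraries, so that value restates its effect at DIV7 and is no comparison of stages.

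The reverse held for 3 genes, whose effect was negative at ESC but not at DIV7: Tnc (2.34, limma adjusted p = 0.00159), Thbs1 (1.91) and Timp2 (1.62). At DIV7 the authors' log2 changes were 0.237, 0.0103 and 0.204 in that order. Between EB8 and ESC the effect was higher for Thbs1 (2.48, limma adjusted p = 8.21e-05), Thbs2 (1.86), Tnc (1.79), Timp2 (1.10) and Col11a1 (0.76). At EB8 Tnc averaged 0.81 CPM in WT and 0.35 CPM in Puf60_pEx5_HOM, where the added 1 CPM damps a log2 change. The authors' log2 change of Tnc was -2.87 at ESC and -0.972 at EB8. All comparisons at a stage share that stage's WT libraries.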

How the results depend on the processing

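No called member or called splicing event reversed direction under any alternative run, and those not called were not checked for this. With 2 libraries a group, leaving out 1 library moved the number of called members most at DIV7, as given here by lowest and highest count. The ranges were 22 to 24 for WT from ESC to EB8 (24 with all libraries), 21 to 27 from EB8 to DIV7 (27), 4 to 7 (11), 0 to 3 (4) and 8 to 21 (14) for Puf60_pEx5_HOM in stem cells, embryoid bodies and neurons, 1 to 9 for Puf60_pEx5_HET at DIV7 (6), 0 to 10 for Rbm38KO at DIV7 (2), and 0 to 2 at EB8 (0) and 1 to 4 at DIV7 (2) for Puf60_mEx5_HOM. Between the 2 homozygous Puf60 lines they were 10 to 10 (13), 9 to 17 (15) and 19 to 27 (26) in the same order. For splicing events the ranges were 1 to 2 from ESC to EB8 (3) and 4 to 8 from EB8 to DIV7 (5) in WT, 1 to 3, 0 to 0 and 1 to 4 for Puf60_pEx5_HOM at ESC, EB8 and DIV7 (1, 1 and 4), 0 to 0 for Rbm38KO at ESC (1), and 1 to 2, 0 to 1 and 2 to 7 between the homozygous lines (3, 1 and 7). Each such fit has fewer samples by construction.

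Puf60_mEx5_HOM at EB8 had 1 called member under scaling to the total, quantile normalisation, a pseudocount of 0.25, voom weights or no fold threshold, against 0. Rbm38KO at DIV7 had 1 under quantile normalisation and 0 under voom, and Puf60_mEx5_HOM at DIV7 had 0 under the smaller pseudocount. With voom, Puf60_pEx5_HOM had 4 at ESC and 2 at EB8, and the homozygous lines differed in 8 members at ESC. A minimum of 20 reads left 0 splicing calls for Rbm38KO at ESC and at EB8 for Puf60_pEx5_HOM and between the homozygous lines. Without read weights the calls were 0 for Rbm38KO at ESC, 0 for Puf60_pEx5_HOM at DIV7, and 1, 2 and 1 between the homozygous lines at ESC, EB8 and DIV7. A threshold of 15 points left 1 in the latter comparison at ESC. The cause was not tested. Depth limits the splicing of lowly expressed members, such as Postn at EB8.

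The replicate letters are only shared names, since the labels give no pairing. A minus B differences correlated between lines at 0.37 to 0.59 at ESC, but from -0.32 to 0.65 at EB8 and from -0.25 to 0.68 at DIV7. With the letter as a replicate block, Puf60_mEx5_HOM had 1, 6 and 9 called members at ESC, EB8 and DIV7 (0, 0 and 2 without it) and 1 splicing call at DIV7, and Puf60_pEx5_HOM had 2 splicing calls at ESC. It moved no other count of calls by over 1.5 times.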

Other observations

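The brain's own matrix genes, none of them among the 41, rose through both steps of WT differentiation with 1 of 16 called in Puf60_pEx5_HOM neurons against WT. In WT, 10 rose and 1 fell from ESC to EB8 (39.9% of all genes were called), and 12 rose and 1 fell from EB8 to DIV7 (30.3% of all genes). Bcan, which encodes brevican, stood at 5.58 and 3.54 CPM at EB8 and at 191 and 180 CPM at DIV7 (5.09 ± 0.33, adjusted p by limma = 5.2e-11). Reln, which encodes reelin, a signal for migrating neurons, stood at 42.4 and 35.6 CPM and then at 229 and 248 CPM (2.58 ± 0.20). Tnr, which encodes tenascin-R of perineuronal nets, was at 0 in both ESC libraries, at 9.57 and 9.14 CPM at EB8 and at 40.2 and 42.3 CPM at DIV7. In Puf60_pEx5_HOM neurons Tnr stood at 37.2 and 38.8 CPM and Reln at 278 and 236 CPM, and neither was called.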
